A study of Mus musculus with 30 samples.

Results

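The immune checkpoint ligands and receptors described here were 9 genes taken by symbol: *Cd274* (PD-L1) and *Pdcd1lg2* (PD-L2) with their receptor *Pdcd1* (PD-1), the B7 ligands *Cd80* and *Cd86* with the inhibitory receptor *Ctla4* (CTLA-4), *Havcr2* (TIM-3) with its ligand *Lgals9* (galectin-9), and *Vsir* (VISTA). All 9 of 9 were present among the 13353 genes counted in BM and the 17059 genes counted in adipose tissue macrophages (ATMs), *Vsir* under its older symbol 4632428N05Rik, and none was lost to the filter on low counts. Checkpoint receptors appear on activated T cells and pass an inhibitory signal when a ligand on an antigen-presenting or tumor cell binds them. The PD-1 ligands are inducible by interferons, CD80 and CD86 activate T cells through CD28 and are bound more tightly by CTLA-4, which regulatory T cells carry constitutively, and TIM-3 and VISTA are found on myeloid cells as well as on T cells.

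The RNA-seq compared 5 groups of 3 libraries in each tissue: whole BM cells, and macrophages sorted as F4/80-positive cells from visceral adipose tissue. Lethally irradiated recipients (700 + 400 cGy) had been given CD45.2 marrow of Shp2E76K/+;LysM-Cre+ donors, in which an activated SHP2 is switched on in myeloid cells by the lysozyme promoter, together with an equal number of CD45.1 Boy/J competitor cells, so that each library could hold mutant, competitor and residual host cells. WT recipients were lean C57BL/6 mice, and the sources used here differ on whether the WT recipients behind the ATM libraries had been given mutant or WT cells. The other 4 groups were leptin-deficient Ob/Ob recipients randomized 8 weeks after transplantation and treated for 30 days. They received Vehicle, beinaglutide (a GLP-1R agonist) at a subcutaneous dose of 3 mg/kg, an antibody to IL-17A, or both agents (Combo). The antibody was given at 200 µg for each mouse, 3 times weekly, by the intraperitoneal route. The labels give the mice as about 12 to 14 weeks old and of both sexes, all C57BL/6J and all of 1 batch, and the study counts each group as 3 biological replicates. Because randomization came 8 weeks after transplantation and treatment lasted 30 days, the time to which this age applies is unclear. The study gives a younger age for recipients at transplantation. Because Vehicle was the control of all 3 treatment comparisons and one side of Vehicle versus WT, these 4 comparisons were not independent.

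Libraries held 31086184 to 39925495 counts in BM and 24876074 to 45300263 in ATMs, and the lowest count of any of the 9 genes in a library was 17 (*Ctla4* in BM of Combo mice). Levels are given as CPM, each gene's count divided by the TMM-scaled library total. F4/80 itself (*Adgre1*) was lowest in Vehicle ATMs, at 30.2 to 52.4 CPM, against 192 to 229.6 in WT, 375 to 403 with GLP-1R agonist, 864 to 894 with antibody and 395 to 405 in Combo. The summed level of all 8 of 8 macrophage markers in Vehicle ATMs (2469 to 2666 CPM) was also below that of the other 4 groups, whereas 5 of 6 neutrophil markers summed to 16772 to 17893 CPM in Vehicle and 7071 to 7360 in Combo but to no more than 246 CPM elsewhere. Summed T cell markers (7 of 8) were 77.7 to 96.2 CPM in Vehicle ATMs, 198 to 210.1 in WT, 328 to 339.96 with GLP-1R agonist, 426 to 455 with antibody and 716 to 735 in Combo. Fibroblast and mesothelial markers (5 of 5) summed to 3456 to 3568 CPM in Vehicle ATMs, 10147 to 10773 in WT and 13583 to 13768 with GLP-1R agonist. They summed to 6042 to 6334 with antibody and 6441 to 6470 in Combo. In Vehicle, WT and GLP-1R agonist ATMs these sums exceeded the macrophage sums of the same groups. Endothelial markers (3 of 3) summed to 1109 to 1264 CPM in Vehicle ATMs and to no more than 439 elsewhere. Epididymal genes summed to 2972 to 3123 CPM in WT ATMs and to under 160 CPM in every other group, and pancreatic acinar genes to 443 to 445 CPM in Combo and under 22 CPM elsewhere. *Xist*, expressed from the inactive X chromosome of female cells, was 182 to 193 CPM in Vehicle and 101 to 105 CPM in Combo BM and at most 3.26 CPM in the other 3 BM groups, and in ATMs it was 30.1 to 46.2 CPM in Vehicle and 31.4 to 38.1 CPM in Combo but at most 1.22 CPM elsewhere. *Xist* and the Y-linked genes *Ddx3y*, *Eif2s3y*, *Kdm5d* and *Uty* together summed to 249 to 258 CPM in Vehicle BM and 114 to 117 in Combo BM. The Vehicle sum was well above *Xist* alone, so Vehicle BM held Y-linked transcripts as well. The sex of the cells and the group therefore cannot be told apart between Vehicle or Combo and the other 3 groups. The mix of sexes may also differ between Vehicle and Combo, which was not tested. In BM, NK cell markers (4 of 5) summed to 134 to 139 CPM in Vehicle, 54.3 to 57.7 in WT and 11.3 to 12.9 in Combo, T cell markers (7 of 8) to 54.9 to 56.7, 68.6 to 72.1 and 30.2 to 33.1 CPM, and macrophage markers (8 of 8) to 4198 to 4252, 13326 to 13554 and 6648 to 6760 CPM. B cell markers (6 of 6) summed to 329 to 345 CPM in Vehicle BM, 1131 to 1148 in WT and 106 to 109 in Combo. In these bulk libraries a smaller number of cells of a type and less RNA per cell cannot be told apart, and the part of these markers in the results below was not tested.

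**Figure D1:**
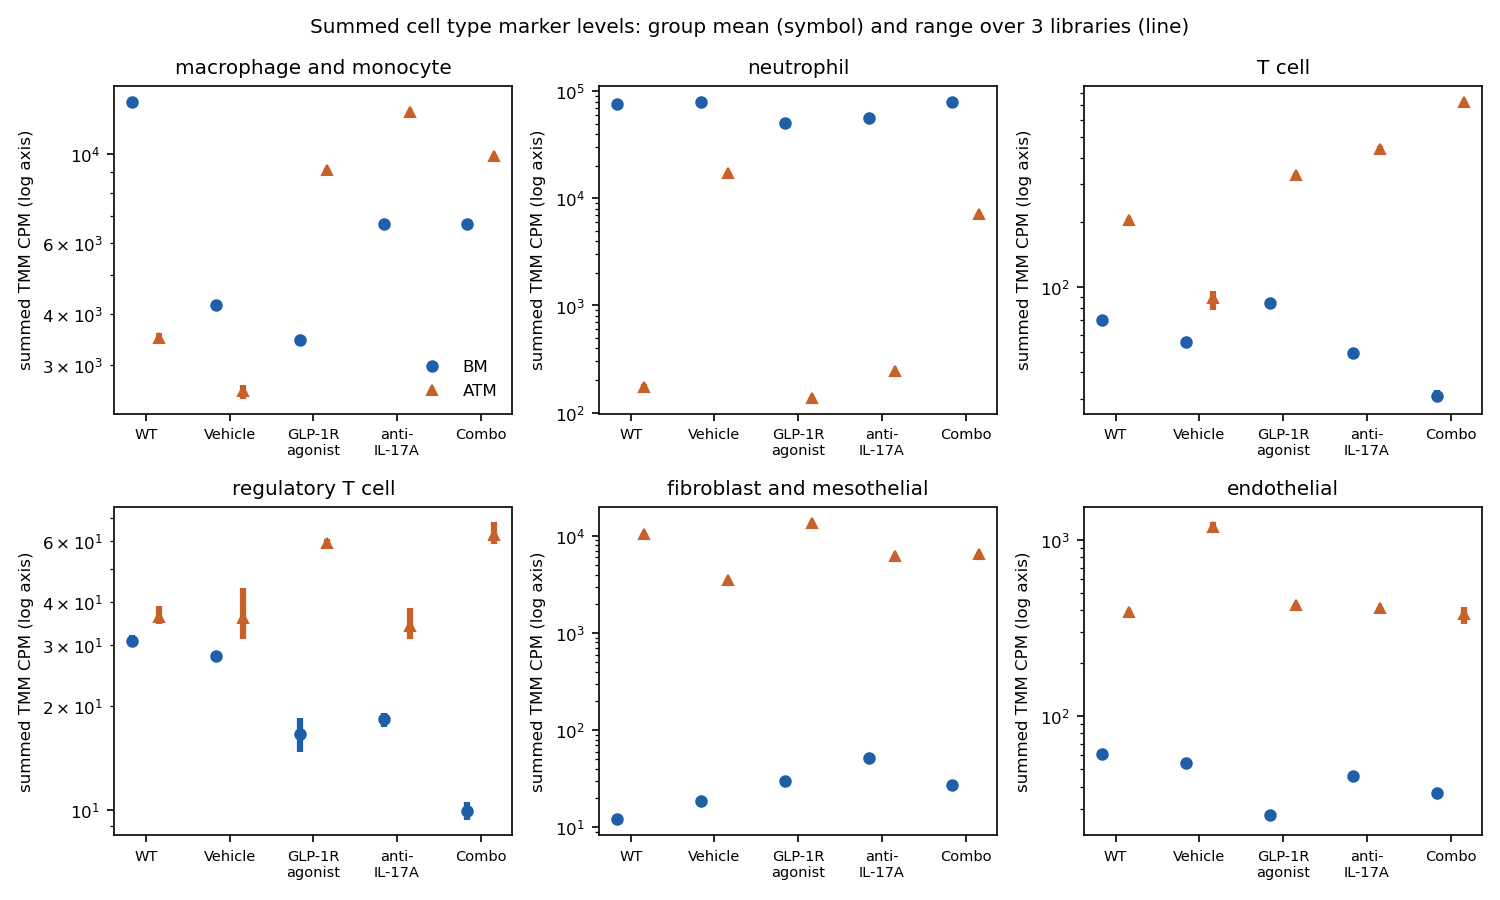
Summed CPM (log axis) of the fixed marker lists for macrophages, neutrophils, T cells, regulatory T cells, fibroblast and mesothelial cells and endothelial cells in BM and ATMs. Symbols give the mean of each group and lines the range over its 3 libraries. In ATMs the Vehicle libraries have the lowest macrophage sums (2469 to 2666 CPM), the highest neutrophil sums (16772 to 17893 CPM) and the lowest T cell sums (77.7 to 96.2 CPM).

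Throughout, a gene was called changed when its adjusted p in edgeR's quasi-likelihood test, corrected over all genes of the tissue by the Benjamini-Hochberg method, was below 0.05 and its log2 fold change exceeded 1 in size, and "rose" and "fell" are used of such genes alone. In BM of Vehicle mice 8 of the 9 checkpoint genes rose over WT, all but *Vsir*, where 19.5% of all genes were called in either direction. The same 8 were lower than in Vehicle BM with GLP-1R agonist (background 16.7% of genes called), with antibody (16.1%) and in Combo (17.7%). In ATMs 4 of the 9 rose in Vehicle over WT (*Cd274*, *Cd80*, *Havcr2* and *Lgals9*), where 35.4% of genes were called. Relative to Vehicle ATMs, 2 were higher (*Pdcd1* and *Ctla4*) and 3 lower (*Cd274*, *Cd80* and *Lgals9*) with GLP-1R agonist (31.8% of genes called). With antibody *Pdcd1* and *Ctla4* were again higher, and *Cd274*, *Cd80*, *Lgals9* and *Pdcd1lg2* lower (35.5%). In Combo *Ctla4* was higher and *Cd274*, *Cd80*, *Cd86* and *Lgals9* lower (26.4%).

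The median log2 fold change of the 9 genes in BM was 1.75 for Vehicle versus WT, -2.06 for GLP-1R agonist, -2.19 for antibody and -2.57 for Combo versus Vehicle, while the medians of all BM genes lay between -0.02 and 0.02. In ATMs the corresponding medians of the 9 genes were 0.87, 0.20, -0.54 and -0.69, against -0.21, 0.19, 0.17 and 0 for all ATM genes. The ATM medians of all genes moved with the scaling: with library totals in place of TMM factors they were -0.65, 0.41, 0.52 and 0.41. The 3 libraries of Vehicle and WT did not overlap for 9 of 9 genes in BM and for 7 of 9 in ATMs, where 75.8% and 62.9% of all genes did not overlap.

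**Figure D2:**
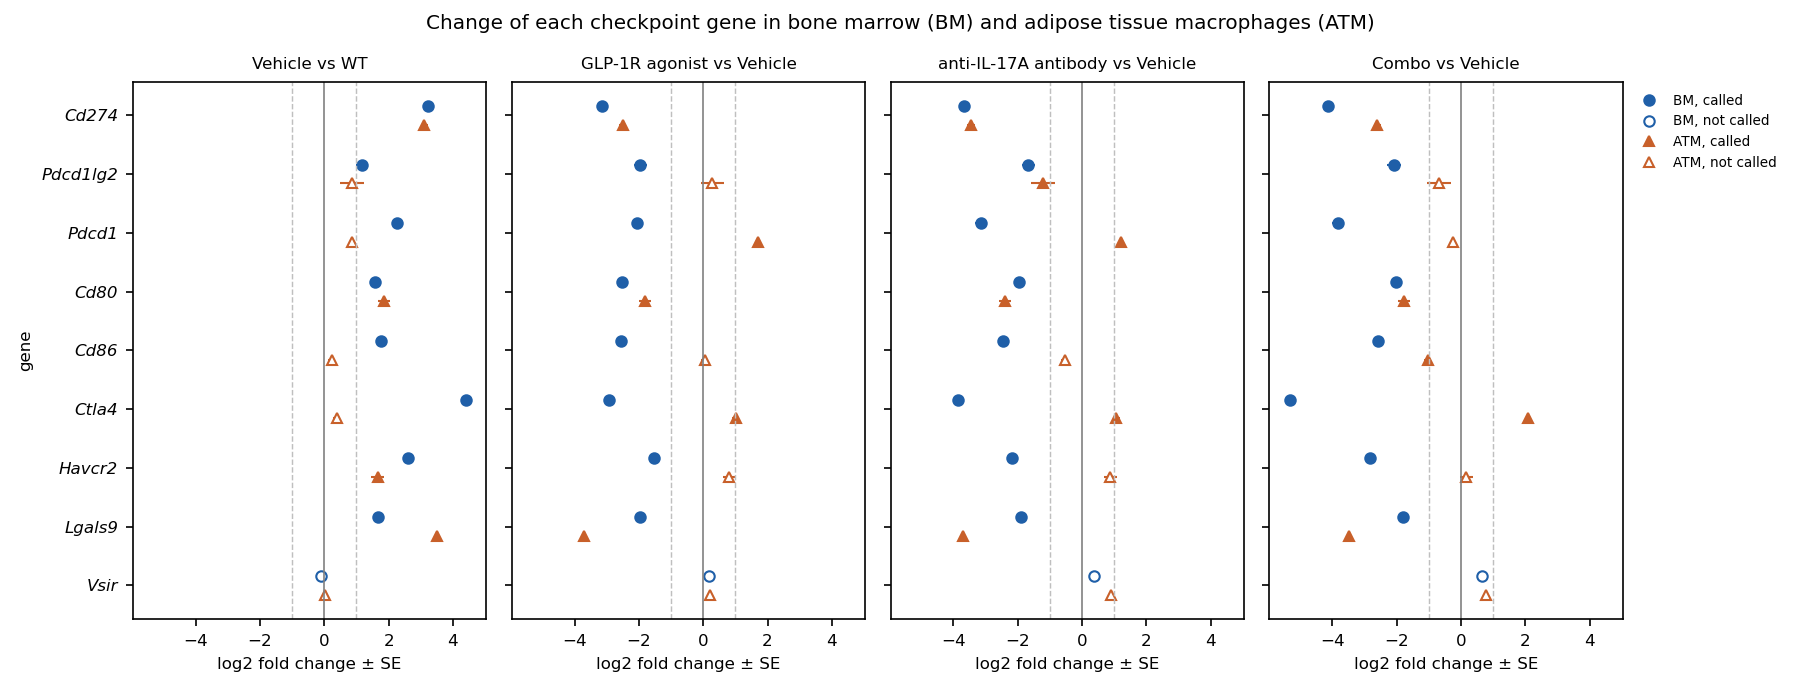
Log2 fold change (x axis, bars ± SE from edgeR) of the 9 checkpoint genes for Vehicle versus WT and for GLP-1R agonist, antibody and Combo versus Vehicle, in BM and in ATMs. In BM 8 genes lie right of 1 for Vehicle versus WT and left of -1 for each treatment, while in ATMs *Pdcd1* and *Ctla4* lie on the other side of 0 from *Cd274*, *Cd80* and *Lgals9* for both single agents.

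The promoters of the 4 genes that rose in Vehicle over WT in both tissues are printed because this rise was shared by both tissues. Each is the RefSeq window on GRCm38.p6 from 250 bases before to 50 bases after the annotated start, written 5′ to 3′ on the gene's strand: *Cd274* at chr19:29367188-29367487, plus strand, *Cd80* at chr16:38458683-38458982, plus strand, *Havcr2* at chr11:46454681-46454980, plus strand, and *Lgals9* at chr11:78984875-78985174, minus strand. Capitals mark matches to 4 motifs searched on both strands: the interferon response element ISRE (GAAANNGAAA), the gamma-activated site GAS (TTCNNNGAA), a loose AP-1-like pattern (TGANTCA, with the middle base left open) and kappaB (GGGANNTTCC).
Cd274: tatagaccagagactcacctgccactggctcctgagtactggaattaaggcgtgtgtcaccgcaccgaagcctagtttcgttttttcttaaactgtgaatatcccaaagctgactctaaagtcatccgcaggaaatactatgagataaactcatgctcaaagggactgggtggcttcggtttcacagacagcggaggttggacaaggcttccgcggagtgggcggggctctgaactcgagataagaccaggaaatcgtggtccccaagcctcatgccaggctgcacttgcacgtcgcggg
Cd80: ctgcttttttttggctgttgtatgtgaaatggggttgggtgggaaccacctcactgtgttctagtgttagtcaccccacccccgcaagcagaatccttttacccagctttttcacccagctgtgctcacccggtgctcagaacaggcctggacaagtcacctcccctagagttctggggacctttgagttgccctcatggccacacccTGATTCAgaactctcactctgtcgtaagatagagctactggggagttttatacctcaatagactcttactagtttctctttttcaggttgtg
Havcr2: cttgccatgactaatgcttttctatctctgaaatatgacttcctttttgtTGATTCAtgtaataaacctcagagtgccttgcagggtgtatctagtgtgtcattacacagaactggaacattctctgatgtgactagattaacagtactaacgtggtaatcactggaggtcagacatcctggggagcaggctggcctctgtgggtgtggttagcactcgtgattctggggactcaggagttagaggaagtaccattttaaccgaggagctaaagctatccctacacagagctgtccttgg
Lgals9: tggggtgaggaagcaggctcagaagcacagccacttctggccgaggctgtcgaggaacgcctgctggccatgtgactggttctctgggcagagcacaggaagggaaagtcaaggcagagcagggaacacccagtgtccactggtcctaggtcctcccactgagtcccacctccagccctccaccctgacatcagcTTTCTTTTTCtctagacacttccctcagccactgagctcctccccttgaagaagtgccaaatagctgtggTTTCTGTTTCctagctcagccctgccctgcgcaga

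The RefSeq start used for *Cd80* lies inside the longer gene span given below. The *Lgals9* window held 2 ISRE matches, 55 bases upstream and 15 bases downstream of the start. *Cd80* and *Havcr2* each held 1 match to the AP-1-like pattern, 42 and 200 bases upstream, and the *Cd274* window held none of the 4 motifs. Both matches read TGATTCA, and whether AP-1 binds these letters was not tested. Of all 32544 RefSeq promoter windows of this length, 3.45% held an ISRE, 8.33% a GAS, 7.79% an AP-1-like and 1.47% a kappaB match. Of the 9 genes 8 had such a window, and the lack of a match concerns these letters in these 300 bases alone.

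**Figure D3:**
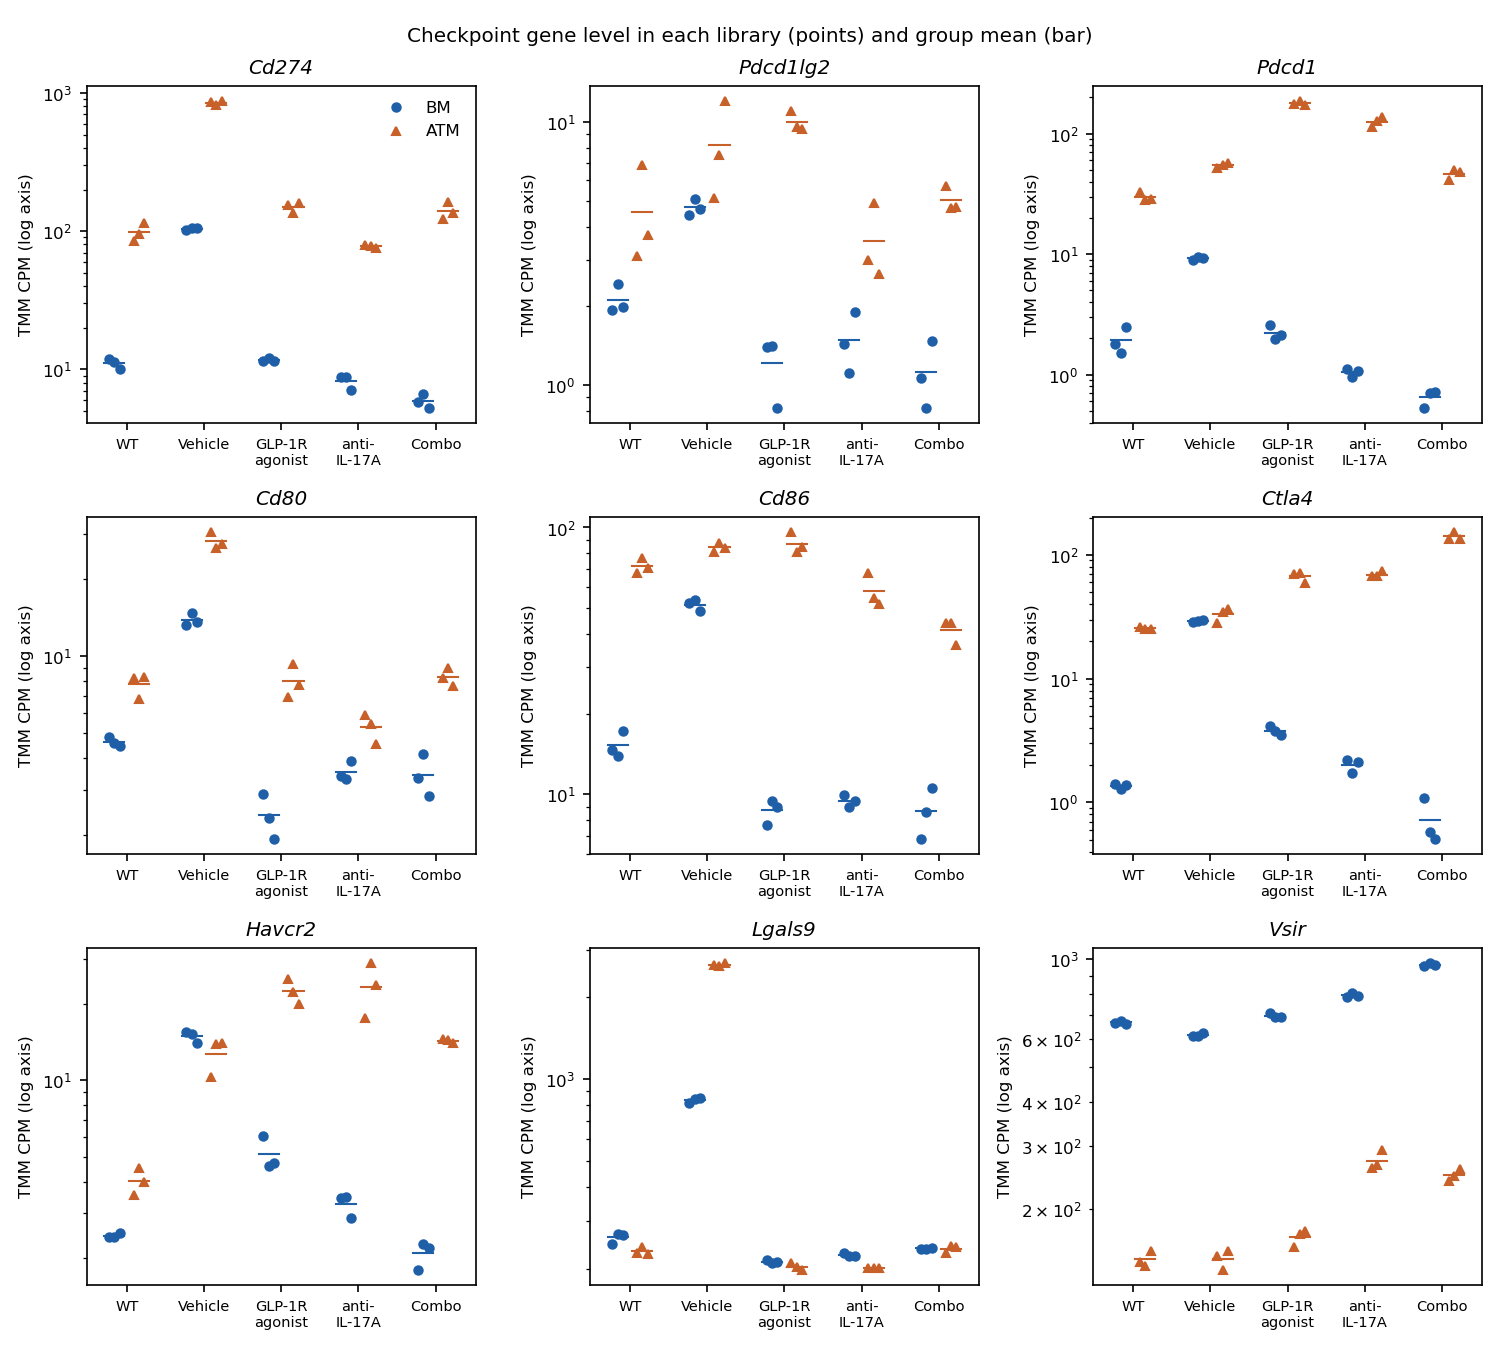
CPM (log axis) of each of the 9 checkpoint genes in every library of BM and ATMs, by group, with a bar at the group mean. In both tissues the Vehicle libraries of *Cd274*, *Cd80* and *Lgals9* stand above all other libraries, and the ATM libraries of *Pdcd1* and *Ctla4* are highest in treated groups.

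*Cd274* encodes PD-L1, the main ligand of PD-1, and lies at chr19:29367455-29388095, plus strand (GRCm38), with 14.1% of its exonic bases shared with the overlapping gene model AC119228.1, so that some reads may belong to either. In BM it stood at 102, 105 and 105 CPM in the Vehicle libraries and at 11.9, 11.3 and 10.1 in WT, 11.5, 12.0 and 11.5 with GLP-1R agonist, 8.77, 8.78 and 7.14 with antibody and 5.82, 6.60 and 5.27 in Combo. The Vehicle libraries were 9.34-fold above WT and overlapped no other group, and the Combo libraries were the lowest. The log2 fold change was 3.22 (SE 0.0641, adjusted p = 5.47e-35) for Vehicle versus WT, -3.16 for GLP-1R agonist, -3.66 for antibody and -4.14 (SE 0.0713, adjusted p = 2.69e-37) for Combo versus Vehicle. Among the groups below Vehicle, GLP-1R agonist and WT did not differ beyond their spread (0.07 on the log2 scale, adjusted p = 0.429), and Combo lay -0.92 (SE 0.0869, adjusted p = 2.71e-12) from WT, short of the fold limit.

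In ATMs the *Cd274* libraries read 866, 814 and 869.5 CPM in Vehicle, 84.9, 94.6 and 115 in WT, 154, 135 and 158 with GLP-1R agonist, 79.2, 78.3 and 75.4 with antibody and 122, 162 and 136 in Combo. Vehicle rose over WT by a log2 fold change of 3.11 (SE 0.113, adjusted p = 1.75e-12), and the antibody group was the lowest of all 5. Versus Vehicle the log2 fold changes were -2.51 for GLP-1R agonist, -3.45 (SE 0.115, adjusted p = 5.67e-13) for antibody and -2.60 (SE 0.110, adjusted p = 1.55e-11) for Combo. GLP-1R agonist and Combo did not differ beyond their spread (0.09 on the log2 scale, adjusted p = 0.527). The study named *Cd274* from these same samples, so its direction is no independent evidence.

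*Pdcd1lg2*, which encodes PD-L2, the other PD-1 ligand, starts 22823 bases after the end of *Cd274* (chr19:29410919-29471161, plus strand). Its BM libraries ranged from 4.43 to 5.12 CPM in Vehicle, 1.94 to 2.42 in WT, 0.822 to 1.41 with GLP-1R agonist, 1.11 to 1.90 with antibody and 0.821 to 1.47 in Combo, so that Vehicle was again separate and the 3 treated groups overlapped one another. It rose in Vehicle by a log2 fold change of 1.17 (SE 0.191, adjusted p = 8.61e-07) and fell in Combo relative to Vehicle (log2 fold change -2.08, SE 0.213, adjusted p = 2.06e-11). In ATMs the libraries read 5.15 to 12.0 CPM in Vehicle, 3.09 to 6.85 in WT, 9.41 to 11.0 with GLP-1R agonist, 2.65 to 4.94 with antibody and 4.73 to 5.73 in Combo. Vehicle overlapped every group but antibody, and GLP-1R agonist overlapped none but Vehicle. The ATM log2 fold change was 0.85 (SE 0.372, adjusted p = 0.0639) for Vehicle versus WT, not called, and 1.27 and 1.09, called, without WT replicate 2 or Vehicle replicate 1. The fall with antibody, -1.22 (SE 0.374, adjusted p = 0.0115), was not called without Vehicle replicate 3 (adjusted p = 0.0678) or under library-size scaling (adjusted p = 0.0555).

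Per kilobase of exon, *Cd274* exceeded *Pdcd1lg2* in every library. The ratio of their per-kilobase levels was 11.1 to 12.5 in Vehicle BM and 2.53 to 3.31 in WT BM, and 39.2 to 91.0 in Vehicle ATMs and 7.48 to 16.8 in WT ATMs. Treated groups ranged from 1.94 to 7.56 in BM and from 7.61 to 18.5 in ATMs, below the Vehicle libraries of the same tissue.

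*Pdcd1* encodes the receptor PD-1 (chr1:94038305-94052553, minus strand), and here the tissues parted. BM libraries held 9.02, 9.56 and 9.30 CPM in Vehicle, 1.79, 1.51 and 2.50 in WT, 2.58, 1.96 and 2.14 with GLP-1R agonist, 1.11, 0.955 and 1.07 with antibody and 0.532, 0.699 and 0.719 in Combo. The order of groups was that of *Cd274*, with Vehicle far above the rest and Combo at the bottom. Log2 fold changes were 2.27 (SE 0.155, adjusted p = 1.42e-16) for Vehicle versus WT and -2.06, -3.15 and -3.83 (SE 0.188, adjusted p = 3.19e-21) for the 3 treatments versus Vehicle. Combo fell below WT as well, with a log2 fold change of -1.56 (SE 0.228, adjusted p = 9.84e-08).

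In ATMs *Pdcd1* was highest with the single agents, at 178, 186 and 173 CPM with GLP-1R agonist and 113, 127 and 138 with antibody, against 52.1, 54.7 and 56.9 in Vehicle, 40.9, 49.8 and 48.0 in Combo and 32.7, 28.1 and 28.9 in WT. No library of either single-agent group overlapped any of the other 3 groups. It rose over Vehicle by 1.72 (SE 0.0945, adjusted p = 3.73e-10) with the agonist and 1.21 (SE 0.0934, adjusted p = 2.15e-08) with the antibody, whereas Vehicle differed from WT by 0.87 (SE 0.0948, adjusted p = 1.25e-06) and Combo from Vehicle by -0.24 (SE 0.0932, adjusted p = 0.046), neither past the fold limit. The Combo value changed sign under library-size scaling, to 0.18. Combo was lower than either agent alone, with log2 fold changes of -1.95 (SE 0.0948, adjusted p = 1.92e-10) relative to GLP-1R agonist and -1.44 (SE 0.0935, adjusted p = 1.04e-08) relative to antibody. Set against the summed T cell markers of the same library, *Pdcd1* was 56.0% to 70.4% in Vehicle ATMs, 52.4% to 56.7% with GLP-1R agonist, 24.8% to 32.3% with antibody, 13.4% to 16.5% in WT and 5.72% to 6.77% in Combo. On that scale Vehicle ATMs were not below the single agents. The order depends on the denominator, since the T cell sums themselves differed between groups.

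*Cd80*, a B7 ligand shared by CD28 and CTLA-4 (chr16:38455561-38496335, plus strand), rose in Vehicle in both tissues. In BM it read 13.2, 14.8 and 13.6 CPM in Vehicle, 4.82, 4.59 and 4.45 in WT, 2.91, 2.34 and 1.94 with GLP-1R agonist, 3.41, 3.30 and 3.88 with antibody and 3.34, 4.17 and 2.85 in Combo. In ATMs it read 30.5, 26.6 and 27.3 in Vehicle, 8.25, 6.78 and 8.31 in WT, 6.90, 9.35 and 7.71 with GLP-1R agonist, 5.91, 5.44 and 4.55 with antibody and 8.20, 8.98 and 7.66 in Combo. Vehicle was separate from the other groups in both tissues. Vehicle versus WT was 1.58 (SE 0.118, adjusted p = 2.01e-15) in BM and 1.85 (SE 0.189, adjusted p = 5.29e-07) in ATMs, and Combo versus Vehicle was -2.01 (SE 0.124, adjusted p = 6.21e-18) and -1.76 (SE 0.188, adjusted p = 1.07e-06). The lowest group was GLP-1R agonist in BM and antibody in ATMs, where Combo, GLP-1R agonist and WT did not differ beyond their spread.

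*Cd86*, the other B7 ligand (chr16:36603869-36666081, minus strand), rose in Vehicle in BM and was close to WT in ATMs. Its BM libraries ranged from 48.5 to 53.3 CPM in Vehicle against 13.9 to 17.2 in WT, 7.67 to 9.46 with GLP-1R agonist, 8.93 to 9.91 with antibody and 6.82 to 10.5 in Combo. The 3 treated groups overlapped one another below WT. In ATMs the ranges were 81.2 to 87.7 in Vehicle, 67.4 to 77.0 in WT, 80.6 to 95.9 with GLP-1R agonist, 51.7 to 67.7 with antibody and 36.2 to 43.8 in Combo, the lowest. Vehicle versus WT was 1.75 (SE 0.0975, adjusted p = 1.01e-12) in BM and 0.23 (SE 0.111, adjusted p = 0.0842) in ATMs, where it changed sign under library-size scaling (-0.20). Combo versus Vehicle was -2.57 (SE 0.106, adjusted p = 5.97e-15) in BM and -1.03 (SE 0.112, adjusted p = 1.44e-06) in ATMs, and the ATM call was lost without Combo replicate 3 (-0.95) and under library-size scaling (-0.61). The per-kilobase ratio of *Cd86* to *Cd80* was 2.696 to 3.34 in Vehicle ATMs, 4.79 to 5.40 in Combo, and between 8.26 and 14.1 in the libraries of the other 3 groups, while in WT and Vehicle BM it was 3.06 to 3.91 and 3.60 to 3.98.

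*Ctla4* (chr1:60887000-60915832, plus strand) is the inhibitory receptor for both B7 ligands. It had the largest BM change of the 9 genes for Vehicle versus WT and for antibody (-3.85) and Combo versus Vehicle. With GLP-1R agonist its change from Vehicle was -2.94, smaller than that of *Cd274* (-3.16). BM levels were 28.5, 29.4 and 29.6 CPM in Vehicle, 1.42, 1.28 and 1.39 in WT, 4.12, 3.75 and 3.49 with GLP-1R agonist, 2.22, 1.73 and 2.11 with antibody and 1.09, 0.578 and 0.509 in Combo. No 2 of the groups overlapped, and the order ran from Vehicle through GLP-1R agonist, antibody and WT to Combo. It rose 21.3-fold in Vehicle over WT (log2 fold change 4.41, SE 0.127, adjusted p = 2.57e-29) and fell by 5.31 in Combo relative to Vehicle (SE 0.143, adjusted p = 2.46e-30). Combo was also lower than GLP-1R agonist, at -2.37 (SE 0.182, adjusted p = 7.12e-15), and than antibody, at -1.46 (SE 0.205, adjusted p = 1.03e-07).

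The ATM order of *Ctla4* was different, with 135, 152 and 135 CPM in Combo, 66.8, 67.0 and 73.9 with antibody, 70.4, 71.7 and 58.7 with GLP-1R agonist, 28.2, 34.5 and 36.8 in Vehicle and 25.9, 25.1 and 25.2 in WT. The 2 single-agent groups overlapped each other (0.05 on the log2 scale, adjusted p = 0.781) and no other group. Combo was above Vehicle by 2.09 (SE 0.108, adjusted p = 1.85e-10) and above WT by 2.47 (SE 0.109, adjusted p = 5.31e-11), while Vehicle differed from WT by 0.38 (SE 0.107, adjusted p = 0.00656), which became -0.057 under library-size scaling. The single agents sat at the fold limit: 1.01 (SE 0.106, adjusted p = 7.93e-07) for the agonist, 0.96 in DESeq2, with DESeq2 size factors in edgeR and in the 6 libraries compared, and at 0.91 to 0.97 without Vehicle replicate 1 or GLP-1R agonist replicate 1 or 2, and 1.06 (SE 0.106, adjusted p = 4.20e-07) for the antibody, 0.95 without Vehicle replicate 1. As a percentage of summed T cell markers *Ctla4* was 30.3% to 44.4% in Vehicle ATMs, 18.7% to 20.7% in Combo, 17.8% to 21.9% with GLP-1R agonist, 14.7% to 17.3% with antibody and 12.0% to 13.1% in WT, an order in which Vehicle came first. In BM it was 51.9% to 53.8% in Vehicle and 1.69% to 4.80% in all other libraries. The T cell sum itself was 77.7 to 96.2 CPM in Vehicle ATMs and 716 to 735 in Combo ATMs. The ATM order therefore depends on this denominator, and shares of other marker sums were not taken. Regulatory T cell markers summed to 27.0 to 28.7 CPM in Vehicle BM and 29.8 to 32.2 in WT BM, and to 58.9 to 68.1 in Combo and 31.4 to 44.0 in Vehicle ATMs.

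*Havcr2* encodes TIM-3 (chr11:46454935-46481255, plus strand), a receptor of exhausted T cells that macrophages and dendritic cells also carry. BM libraries ranged from 14.0 to 15.4 CPM in Vehicle to 1.80 to 2.28 in Combo, with WT at 2.41 to 2.50, GLP-1R agonist at 4.61 to 6.03 and antibody at 2.86 to 3.49. It rose in Vehicle over WT by 2.60 (SE 0.123, adjusted p = 7.86e-22) and fell in Combo relative to Vehicle, at -2.83 (SE 0.127, adjusted p = 1.61e-22). ATM libraries ranged over 3.55 to 4.50 CPM in WT, 10.3 to 14.0 in Vehicle, 19.9 to 24.99 with GLP-1R agonist, 17.6 to 28.8 with antibody and 14.0 to 14.6 in Combo. WT was therefore the lowest ATM group and overlapped none of the others. Vehicle rose over WT in ATMs by 1.66 (SE 0.204, adjusted p = 4.42e-06) and Combo by 1.83 (SE 0.204, adjusted p = 2.49e-06), whereas Combo and Vehicle did not differ beyond their spread (0.17 on the log2 scale, adjusted p = 0.509). Differences from Vehicle were 0.81 (SE 0.195, adjusted p = 0.00242) with GLP-1R agonist and 0.88 (SE 0.195, adjusted p = 0.00126) with antibody, and both passed the fold limit only under library-size scaling (1.03 and 1.22) or, for the antibody, without its replicate 1 (1.04).

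*Lgals9* encodes galectin-9 (chr11:78962974-78984946, minus strand), a secreted lectin that binds TIM-3, and rose in Vehicle more in ATMs than in BM. BM libraries read 816, 844 and 850.4 CPM in Vehicle, 247, 268 and 267 in WT, 216, 209 and 212 with GLP-1R agonist, 227, 223 and 223 with antibody and 237, 237 and 238 in Combo. ATM libraries read 2634, 2604 and 2671 CPM in Vehicle, 229, 239.96 and 226 in WT, 210.1, 202 and 198 with GLP-1R agonist, 202, 202 and 201 with antibody and 229, 243 and 239 in Combo. In both tissues Vehicle stood apart from 4 groups that lay close together. The rise over WT was 3.21-fold in BM (log2 fold change 1.68, SE 0.0267, adjusted p = 1.64e-38) and 11.4-fold in ATMs (log2 fold change 3.51, SE 0.0383, adjusted p = 1.58e-18). Combo versus Vehicle was -1.82 (SE 0.0269, adjusted p = 1.15e-39) in BM and -3.48 (SE 0.0382, adjusted p = 8.84e-18) in ATMs, which left Combo ATMs and WT ATMs at a difference of 0.03 (SE 0.0350, adjusted p = 0.467). Per kilobase, *Lgals9* had the highest mean of the 9 genes in every ATM group and, in BM, in Vehicle alone. In Vehicle BM and ATMs it was at 392 ± 8.496 and 1234 ± 15.7 CPM per kb (SD, n = 3). In ATMs with GLP-1R agonist it was at 95.2 ± 2.87, close to *Pdcd1* at 92.8 ± 3.23. The per-kilobase ratio of *Lgals9* to *Havcr2* in ATMs was 239 to 326 in Vehicle, 67.9 to 81.9 in WT, and between 8.92 and 21.8 in all treated libraries.

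*Vsir* (chr10:60346851-60372684, plus strand) encodes VISTA, an inhibitory B7-like protein abundant on neutrophils and monocytes, and was the one gene of the 9 with no call in any of the 7 comparisons in either tissue. In BM it was lowest in Vehicle, at 611, 610.4 and 623 CPM, and highest in Combo, at 956, 974 and 967, with WT at 661 to 673, GLP-1R agonist at 689 to 708 and antibody at 782 to 805. No 2 BM groups overlapped, and Vehicle was at the bottom where it was at the top for the other 8 genes. Vehicle differed from WT by -0.12 (SE 0.0219, adjusted p = 1.07e-05) and Combo from Vehicle by 0.65 (SE 0.0219, adjusted p = 5.96e-27). In ATMs the antibody (261 to 293 CPM) and Combo (241 to 259 CPM) groups were higher than GLP-1R agonist (157 to 174), Vehicle (136 to 153) and WT (139 to 153). The ATM difference from Vehicle was 0.91 (SE 0.0643, adjusted p = 7.29e-09) for antibody and 0.78 (SE 0.0643, adjusted p = 5.93e-08) for Combo, and under library-size scaling both passed the fold limit (1.26 and 1.19). Vehicle versus WT was 0.01 (SE 0.0642, adjusted p = 0.95), a value whose sign turned with the scaling (-0.43). Per kilobase *Vsir* had the highest mean of the 9 genes in every BM group but Vehicle. It stood at 133 CPM per kb in WT, 139 with GLP-1R agonist and 158 with antibody. In Combo BM it was at 193 ± 1.81 CPM per kb (SD, n = 3), where *Cd274* was at 1.63 ± 0.184.

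Combo was also set against WT and against each agent alone. In BM 1 of the 9 genes was called between Combo and WT (*Pdcd1*), where 14.3% of all genes were called, and *Cd274*, *Pdcd1lg2* and *Ctla4* lay just inside the fold limit, with *Ctla4* called without Combo replicate 1, *Cd274* without replicate 2 and *Pdcd1lg2* without replicate 3. Against GLP-1R agonist 3 were called in BM, *Pdcd1* (-1.77, SE 0.221, adjusted p = 3.48e-09), *Ctla4* and *Havcr2* (-1.29, SE 0.140, adjusted p = 1.17e-10), all lower in Combo, with 13.2% of genes called. Against antibody 1 was called in BM, *Ctla4*, with 5.67% of genes called. In ATMs 2 genes were called between Combo and WT, *Ctla4* and *Havcr2*, both higher in Combo (21.6% of genes called). Against GLP-1R agonist 3 were called in ATMs (18.7% of genes), with *Pdcd1* and *Cd86* (-1.08, SE 0.112, adjusted p = 1.46e-06) lower and *Ctla4* (1.07, SE 0.104, adjusted p = 6.48e-07) higher, and against antibody 2 were called (14.2% of genes), with *Pdcd1* lower and *Ctla4* (1.02, SE 0.104, adjusted p = 1.71e-06) higher. The *Cd86* call fell short of the limit without GLP-1R agonist replicate 1 or Combo replicate 3 (-0.99 at the nearest to 0) and under library-size scaling (-0.88), the *Ctla4* call against GLP-1R agonist without GLP-1R agonist replicate 3 (0.99), and that against antibody without antibody replicate 1 or 2 or Combo replicate 2 (0.96 at the lowest).

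The difference between the tissues was tested for each gene as the ATM change minus the BM change, in limma over the 13076 genes counted in both. For Vehicle versus WT 4 of the 9 genes were called (28.4% of all genes): *Ctla4* at -4.03 (SE 0.234, adjusted p = 5.00e-18), *Cd86* at -1.53 (SE 0.152, adjusted p = 4.01e-11) and *Pdcd1* at -1.43 (SE 0.212, adjusted p = 3.74e-07), each changed less in ATMs, and *Lgals9* at 1.83 (SE 0.0589, adjusted p = 1.74e-26), changed more in ATMs. *Cd274*, by contrast, differed by -0.10 (SE 0.114, adjusted p = 0.48) and *Cd80* by 0.29 (SE 0.244, adjusted p = 0.333). *Havcr2*, at -0.96 (SE 0.387, adjusted p = 0.0348), was just short of the fold limit. With 1 library left out, 4 to 5 of the 9 genes were called. For Combo versus Vehicle 7 of 9 were called (27.5% of all genes). *Ctla4* had the largest difference, 7.51 (SE 0.266, adjusted p = 2.77e-25), being higher in Combo ATMs and lower in Combo BM. *Pdcd1* (3.62, SE 0.277, adjusted p = 2.00e-14), *Havcr2* (3.07, SE 0.284, adjusted p = 4.79e-12), *Cd86* (1.60, SE 0.173, adjusted p = 3.17e-10), *Cd274* (1.57, SE 0.129, adjusted p = 1.75e-13) and *Pdcd1lg2* (1.57, SE 0.426, adjusted p = 0.0021) had the more negative log2 fold change in BM. *Lgals9* (-1.62, SE 0.0560, adjusted p = 1.33e-25) had the more negative log2 fold change in ATMs. The receptors *Pdcd1*, *Ctla4* and *Havcr2* made up the 3 largest tissue differences for Combo. In ATMs T cell markers differed between these groups in the same direction as *Ctla4*, with all 7 of 7 called higher in Combo than in Vehicle. *Pdcd1* (-0.24) and *Havcr2* (0.17) were not called in that ATM comparison. In BM the T cell sums were 54.9 to 56.7 CPM in Vehicle and 30.2 to 33.1 in Combo. The part of T cells in these differences was not tested.

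**Figure D4:**
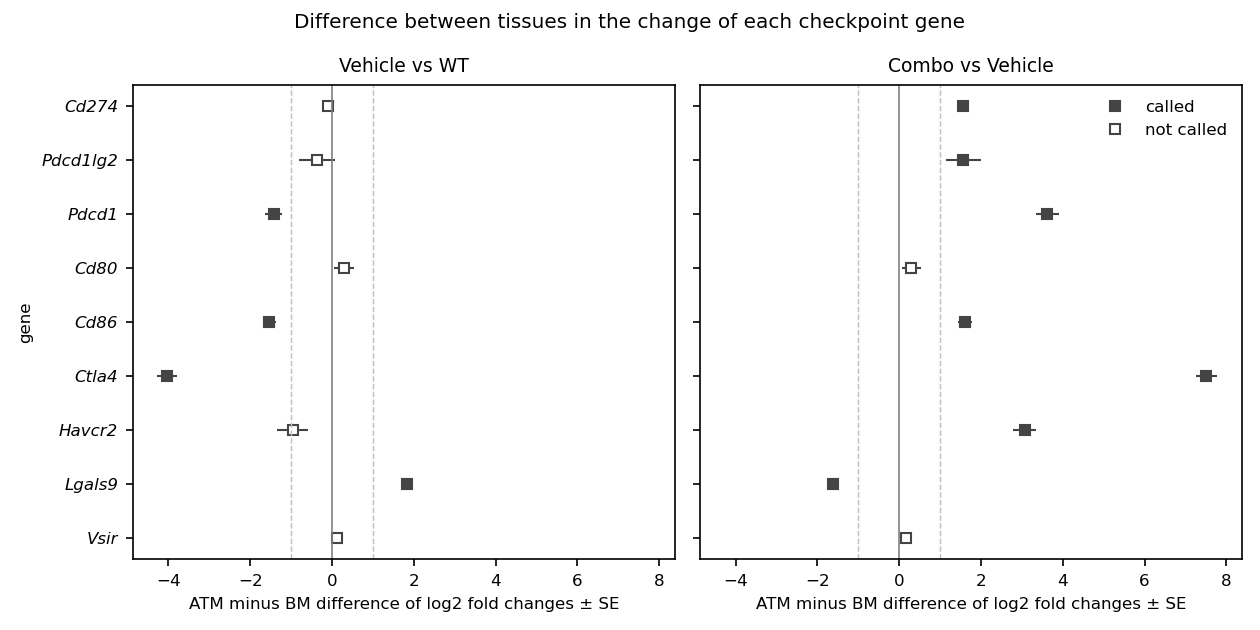
ATM change minus BM change in log2 fold change (x axis, points with SE from limma) of the 9 checkpoint genes for Vehicle versus WT and for Combo versus Vehicle. *Ctla4* lies at -4.03 in the first and 7.51 in the second comparison, the farthest from 0 in both.

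The 9 genes were set beside other genes of their pathways, in 7 lists. For comparison, of all genes 9.44% were called higher and 10% lower in Vehicle versus WT BM and 12.5% and 22.9% in ATMs, and for Combo versus Vehicle the shares were 6.58% and 11.1% in BM and 14.1% and 12.2% in ATMs. With GLP-1R agonist versus Vehicle they were 7.6% and 9.08% in BM and 20.8% and 10.9% in ATMs, and with antibody versus Vehicle 7.65% and 8.46% in BM and 22.4% and 13.1% in ATMs.

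Interferon signaling leads to PD-L1 through STAT factors and IRF1. Genes of this axis were called 4 of 14 higher and 0 lower in Vehicle versus WT BM (median 0.71) and 7 of 14 higher and 0 lower in ATMs (median 1.01). *Stat2*, a subunit of the interferon-responsive ISGF3 complex, rose in BM by 3.21 (SE 0.0348, adjusted p = 2.84e-44, mean 50.1 to 464 CPM) and in ATMs by 3.26 (SE 0.138, adjusted p = 1.17e-11, mean 27.5 to 263 CPM). In BM *Ifng*, which encodes interferon-γ itself, rose by 2.22 and its feedback inhibitor *Socs1* by 2.03, and in ATMs *Irf9* rose by 1.66 and *Irf1* by 1.37. Versus Vehicle in BM the calls were 1 of 14 higher and 6 lower with GLP-1R agonist, 0 of 14 higher and 6 lower with antibody, and 0 of 14 higher and 6 lower in Combo, with medians of -0.65, -0.38 and -0.21. In ATMs they were 0 of 14 higher and 5 lower with GLP-1R agonist, 1 of 14 higher and 6 lower with antibody, and 1 of 14 higher and 6 lower in Combo, with medians of -0.47, -0.93 and -0.85. *Stat2* fell in Combo in BM (-3.65) and in ATMs (-2.92), whereas *Ifng* fell in Combo BM (from 3.72 to 0.119 CPM) and rose in Combo ATMs, by 2.01 (SE 0.175, adjusted p = 1.05e-07, mean 14.6 to 59.2 CPM).

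PD-1 acts on kinases and adaptors of the T cell receptor, among them *Lck* and *Zap70*, through the phosphatases encoded by *Ptpn6* and *Ptpn11*. Of 16 genes of this group 0 were called in Vehicle versus WT BM by edgeR or DESeq2, with 14 at an unadjusted p below 0.05 in edgeR and no log2 fold change over 0.77 in size (median -0.06). The adjusted p was below 0.05 for 12 of them in edgeR and 13 in DESeq2, so for these the fold limit alone was not met. The share of all BM genes below these p limits was not taken, so no shift of this group can be read from these counts. The Vehicle and WT libraries did not overlap for 75.8% of all BM genes. In Combo versus Vehicle BM 0 of 16 higher and 6 lower were called, led by *Zap70* at -1.48 (SE 0.117, adjusted p = 1.37e-14, mean 9.30 to 3.32 CPM). In ATMs 1 of 16 higher and 3 lower were called in Vehicle versus WT, and in each treatment the called genes were all above Vehicle: 9 of 16 higher and 0 lower with GLP-1R agonist (median 1.16), 6 of 16 higher and 0 lower with antibody (median 0.85) and 8 of 16 higher and 0 lower in Combo (median 1.02). *Lck*, the kinase that starts T cell receptor signaling, rose in Combo ATMs by 2.76 (SE 0.0896, adjusted p = 5.96e-13, mean 36.2 to 245 CPM), and the exhaustion-associated factor *Tox* rose by 2.38 with GLP-1R agonist, 3.08 with antibody and 2.10 in Combo. These groups are also those with the higher summed T cell markers.

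Other genes of the B7 and CD28 family were called 2 of 7 higher and 1 lower in Vehicle versus WT BM and 2 of 8 higher and 2 lower in ATMs (medians 0.11 and -0.07), and 1 of 7 higher and 4 lower in Combo versus Vehicle BM and 3 of 8 higher and 0 lower in ATMs (medians -1.01 and 0.48). The costimulatory receptor *Icos* rose in Vehicle BM by 2.26 (SE 0.185, adjusted p = 3.40e-14, mean 1.25 to 6.00 CPM) and fell in Combo BM (-2.75), but rose in Combo ATMs (1.92). *Cd28*, the activating partner of CTLA-4, fell in Combo BM (-1.48) and rose in Combo ATMs by 2.75 (SE 0.146, adjusted p = 2.49e-10, mean 29.9 to 202 CPM). *Vsig4*, a macrophage complement receptor with T cell inhibitory activity, fell in Vehicle ATMs (-2.96) and rose in Combo ATMs (4.26), along with the macrophage marker sums.

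Of the other inhibitory receptors of T and NK cells and their ligands, 5 of 13 higher and 4 lower were called in Vehicle versus WT BM (median 0.31) and 5 of 12 higher and 6 lower in ATMs (median -0.53). Combo versus Vehicle gave 0 of 13 higher and 7 lower in BM (median -1.10) and 6 of 12 higher and 4 lower in ATMs (median 1.43). *Tigit*, a receptor of exhausted and regulatory T cells, rose in Vehicle BM by 2.17 (SE 0.149, adjusted p = 1.70e-16, mean 2.26 to 10.3 CPM) and fell in Combo BM (-2.66), and *Nectin2*, which encodes one of its ligands, rose by 2.58 in Vehicle BM. *Lag3*, a receptor for MHC class II, rose in Vehicle ATMs by 3.00 (SE 0.351, adjusted p = 2.42e-06, mean 1.84 to 14.8 CPM) and fell in Combo BM (-1.82). *Cd96*, which the study had named on these samples, fell in Vehicle ATMs (-2.22) and rose in Combo ATMs by 4.01 (SE 0.353, adjusted p = 1.24e-07, mean 2.92 to 46.9 CPM).

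Myeloid inhibitory receptors and ligands were called 3 of 8 higher and 1 lower in Vehicle versus WT BM and 5 of 8 higher and 0 lower in ATMs, with medians of 0.17 and 1.52. *Lilrb4a*, an inhibitory receptor of myeloid cells, rose in BM by 1.71 (SE 0.0255, adjusted p = 2.18e-39, mean 164 to 535 CPM) and in ATMs by 2.57 (SE 0.0544, adjusted p = 2.41e-15, mean 103 to 614 CPM), and *Cd47*, the "don't eat me" ligand of SIRPα, rose by 1.37 and 1.58. Combo versus Vehicle gave 1 of 8 higher and 2 lower in BM and 3 of 8 higher and 3 lower in ATMs, where *Cd200* fell (-3.35) and *Sirpa* rose (1.70).

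TNF family costimulatory genes were called 3 of 9 higher and 1 lower in Vehicle versus WT BM and 4 of 11 higher and 0 lower in ATMs (medians 0.39 and 0.72), and 1 of 9 higher and 5 lower and 4 of 11 higher and 2 lower in Combo versus Vehicle (medians -1.59 and -0.36). *Tnfrsf9*, which encodes the activation marker 4-1BB, rose in Vehicle BM by 3.66 (SE 0.184, adjusted p = 1.70e-11, mean 2.75 to 35.0 CPM) and fell in Combo BM (-5.86), and *Cd40* rose in Vehicle ATMs (2.52) and fell in Combo in both tissues (-3.65 in BM and -2.45 in ATMs). Of the enzymes that suppress T cells through amino acids or adenosine, *Arg1* rose in Vehicle BM by 7.54 (SE 0.122, adjusted p = 3.17e-38, mean 0.389 to 71.6 CPM) and fell in Combo BM (from 71.6 to 0.199 CPM). In ATMs *Arg1* rose in Vehicle (2.32) and again in Combo over Vehicle (2.06), whereas *Ido1* rose in Vehicle by 2.77 (SE 0.563, adjusted p = 6.07e-04, mean 4.46 to 30.5 CPM) and fell in Combo (from 30.5 to 0.269 CPM). These enzymes were called 2 of 5 higher and 2 lower in BM and 4 of 6 higher and 0 lower in ATMs for Vehicle versus WT, with medians of -0.41 and 1.20, and 1 of 5 higher and 2 lower and 1 of 6 higher and 2 lower for Combo versus Vehicle, with medians of -1.73 and -1.56.

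Genes whose pattern was most like that of *Cd274* were ranked by Pearson's r of log2(CPM + 0.5) over the 15 libraries of a tissue, which share the 5 groups, so that r mainly follows the group means and is given as a description. In BM, among 11391 genes, they were *Isg20* (0.996), *H3f3b* (0.996), *Serpina3g* (0.995), *Serpina3f* (0.992) and *H2-Q4* (0.992), and in ATMs, among 13923 genes, *Cfb* (0.994), *Fas* (0.991), *H2-K1* (0.990), *Nfkbia* (0.989) and *Nub1* (0.987). The 2 genes most like *Lgals9* were *Tmem219* (0.996) and *Dhx58* (0.996) in BM and *H2-T23* (0.998) and *Ercc1* (0.996) in ATMs, those most like *Cd80* were *Parp14* (0.986) and *Zbp1* (0.985) in BM and *Rsad2* (0.987) and *Ly6d* (0.986) in ATMs, and those most like *Cd86* were *Ifit3* (0.990) and *Trim25* (0.990) in BM and *Ptp4a1* (0.957) and *Il6* (0.954) in ATMs. Among the receptors, *Ctla4* was most like *Tsc22d3* (0.993) and *Adap2* (0.988) in BM and *Gimap7* (0.984) and *Rpsa* (0.968) in ATMs, *Pdcd1* like *Gm614* (0.990) and *Ccl5* (0.990) in BM and *Lmna* (0.979) and *Fbln7* (0.972) in ATMs, and *Havcr2* like *Dusp16* (0.984) and *Mlxip* (0.982) in BM and *Cd44* (0.974) and *Pla2g7* (0.970) in ATMs. *Pdcd1lg2* was most like *Dnase1l3* (0.965) and *D17H6S56E-5* (0.962) in BM, and *Vsir* like *Tkt* (0.993) and *Tnfrsf21* (0.992) in BM and *Arhgap9* (0.977) and *Nme1* (0.966) in ATMs.

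Between the 9 genes themselves, *Vsir* in BM had a negative r with each of the other 8, from -0.841 to -0.546 over the 15 libraries, and all pairs of the other 8 lay between 0.744 and 0.982. In ATMs *Cd274* had a high r with *Cd80* (0.971) and *Lgals9* (0.958) but not with *Havcr2* (0.017). *Pdcd1* was nearest to *Havcr2* (0.851) and *Ctla4* to *Vsir* (0.789), while *Pdcd1* had an r of 0.354 with *Ctla4* and 0.307 with *Vsir*. *Cd86* in ATMs had a negative r with *Vsir* (-0.792) and with *Ctla4* (-0.695).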

How the data were processed

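RNA-seq was measured in 30 libraries, 15 of BM and 15 of ATMs, in 5 groups of 3 per tissue. Raw counts per gene were deposited by the authors, who aligned reads with STAR 2.7.2a to mm10 and counted them with featureCounts 2.0.1, unstranded and with reads over several genes counted for each, so that overlapping genes can share reads. The smallest gene total was 55 counts in BM and 54 in ATMs, so genes of fewer counts had been left out before deposit. Groups came from the sample labels, and 0 columns of per-sample values were left unused. Depth was 31086184 to 39925495 counts in BM and 24876074 to 45300263 in ATMs.

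Each tissue was fitted in edgeR 4.0.16 (R 4.3.3) over its 15 libraries with TMM factors, filterByExpr, robust dispersions and the quasi-likelihood F test, with Benjamini-Hochberg adjustment over all genes. Calls needed an adjusted p below 0.05 and a log2 fold change above 1 in size. SE was the log2 fold change divided by the square root of F. The biological coefficient of variation was 3.51% in BM and 32.5% in ATMs. Because most libraries of a BM group were nearly alike, p-values measure the spread between these libraries alone, which may be technical. In BM, WT replicate 1 stood apart from WT replicates 2 and 3 (chi-square per degree of freedom between library counts 34.8 and 26.6). All other pairs within a BM group gave 2.02 to 4.21. With any 1 library left out, 8 checkpoint genes were still called for Vehicle versus WT in BM. Libraries of a group differed beyond counting noise, so none was treated as a copy of another. This check cannot tell separate mice from repeat preparations of the same sample. The difference between tissues was tested in limma 3.58.1 (voom with a variance for each tissue). The tests were tested on simulated data first. Levels per kilobase used exon lengths of GENCODE M21 on GRCm38, a release near the one the authors counted on (M22).

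The members, gene lists and alternatives were chosen with earlier results of these data known. All 9 members were named, from each pathway list up to 4 called genes per comparison with the largest log2 fold change and a mean of at least 10 counts, *Cd96* because the study named it, and the 5 genes most like *Cd274* and 2 most like each other member among genes of at least 50 mean counts. Some items that these rules name are not reported here. Of the other alternatives (DESeq2 1.42.0, DESeq2 size factors, low-count filters, the 6 libraries compared, a replicate block, no fold limit, each library left out), scaling by library totals was chosen after seeing the data.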

Additional observations from a re-analysis of the deposited data

Results flagged for a closer look

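The change of 4 checkpoint genes between Vehicle and WT differed between the tissues when the difference itself was tested in limma, given here as the log2 fold change in ATMs minus that in BM. The differences were *Pdcd1* by -1.43 (0.87 in ATMs and 2.27 in BM), *Cd86* by -1.53 (0.23 in ATMs and 1.75 in BM), *Ctla4* by -4.03 (0.38 in ATMs and 4.41 in BM) and *Lgals9* by 1.83 (3.51 in ATMs and 1.68 in BM). An edgeR fit of all 30 libraries called the same number of genes.

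For Combo versus Vehicle 7 genes differed between ATMs and BM. They were *Cd274* by 1.57 (-2.60 in ATMs and -4.14 in BM), *Pdcd1lg2* by 1.57 (-0.69 in ATMs and -2.08 in BM), *Pdcd1* by 3.62 (-0.24 in ATMs and -3.83 in BM), *Cd86* by 1.60 (-1.03 in ATMs and -2.57 in BM), *Ctla4* by 7.51 (2.09 in ATMs and -5.31 in BM), *Havcr2* by 3.07 (0.17 in ATMs and -2.83 in BM) and *Lgals9* by -1.62 (-3.48 in ATMs and -1.82 in BM). *Ctla4* moved in opposite directions, and all 3 Combo ATM libraries stood above all 3 Vehicle ATM libraries while all 3 Combo BM libraries stood below all 3 Vehicle BM libraries. Summed T cell markers in ATMs were 716 to 735 CPM in Combo and 77.7 to 96.2 CPM in Vehicle, and neutrophil markers 7071 to 7360 and 16772 to 17893 CPM. Their part in these differences was not tested.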

How the results depend on the processing

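Of 1638 single-gene values recomputed under the alternatives, 1577 kept direction and side of the limits, 16 gained and 18 lost a call, and 27 changed sign, and of 222 counts of called genes 209 stayed within 1.5 times. Same-numbered samples did not deviate together (r -0.030 to 0.052 in BM and -0.022 to 0.034 in ATMs, none over 0.1), so the replicate number was taken as a name. With a replicate block the number of checkpoint genes called remained 8, 8, 8, 8, 1, 3 and 1 in BM and 4, 5, 6, 5, 2, 3 and 2 in ATMs for Vehicle versus WT, GLP-1R agonist, antibody and Combo versus Vehicle, and Combo versus WT, GLP-1R agonist and antibody, and no call changed. Without the fold limit the counts for Combo versus WT, GLP-1R agonist and antibody became 8, 7 and 6 in BM and 6, 7 and 7 in ATMs. The share of all genes called without the fold limit was not taken, so these counts have no background. In the same comparisons the libraries did not overlap for 73.3%, 74.8% and 61% of all genes in BM. The ATM shares were 56.1%, 53.9% and 43.4%. Library-size scaling, added after seeing the data, gave 4 for Combo versus WT in BM. Leaving out 1 library gave 1 to 2 there and 1 to 2 for Combo versus antibody in ATMs.

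Sign changes were confined to values of no call under either setting. Library-size scaling turned BM *Lgals9* in Combo versus GLP-1R agonist (-0.097) and antibody (-0.11), ATM *Cd86* (-0.20), *Ctla4* (-0.057) and *Vsir* (-0.43) in Vehicle versus WT, ATM *Pdcd1* in Combo versus Vehicle (0.18) and ATM *Cd274* in Combo versus GLP-1R agonist (0.11). ATM *Vsir* in Vehicle versus WT was -0.0022 with at least 10 counts in every library, and ATM *Cd86* in GLP-1R agonist versus Vehicle was -0.0059 with DESeq2 factors, -0.0058 in DESeq2 and -0.012 in the 6 libraries compared. With 1 library left out the ranges crossed 0 for ATM *Vsir* in Vehicle versus WT (-0.033 to 0.056), ATM *Cd86* in GLP-1R agonist versus Vehicle (-0.032 to 0.096), ATM *Pdcd1lg2* (-0.056 to 0.58) and *Cd80* (-0.00022 to 0.14) in Combo versus WT, ATM *Cd80* (-0.041 to 0.18), BM *Cd86* (-0.18 to 0.13) and BM *Pdcd1lg2* (-0.37 to 0.051) in Combo versus GLP-1R agonist, and BM *Cd80* (-0.19 to 0.085) and *Cd86* (-0.29 to 0.022) in Combo versus antibody. BM *Cd274* in Combo versus GLP-1R agonist passed the fold limit with at least 10 counts in every library (-1.01), under library-size scaling (-1.24) and without Combo replicate 2 (-1.07). The cause was not tested. Depth limited *Ctla4* and *Pdcd1* in Combo BM most, at 17 to 37 and 18 to 24 counts.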
